A study of Mus musculus with 16 samples.

Results

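Ifih1, Dhx58, Irf1, Irf3, Irf7, Irf9, Stat2, Ifnar1 and Ifnar2 make up a group of 9 genes that sense foreign RNA, carry the type I interferon signal or receive it. They were found by gene symbol among the 56980 genes counted in primary mouse microglia, and they were picked with earlier results of these data known. All 9 were among the 12272 genes with enough counts to test. Microglia, the resident macrophages of the brain, came from cortex and hippocampus of mice 1 to 3 days old, were grown with other glia and were shaken off the culture, and no sort or gate is named. Wild-type (WT) cells were set beside cells without Grn (Grn KO). Grn encodes progranulin, which is secreted and also works in lysosomes, and the labels do not give the knockout allele, the strain of the mice or whether animals were pooled. Rimeporide, an inhibitor of sodium-proton exchange, was given to both genotypes at 2 uM for 72 h, and the other cultures had an equal amount of the vehicle DMSO. That gives 4 groups of 4 libraries, described as 4 biological replicates per genotype, and by its title the series is about lysosomal acidification in Grn KO microglia.

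Ifih1 encodes MDA5 and Dhx58 encodes LGP2, cytosolic helicases that bind double-stranded RNA. MDA5 signals through the adaptor MAVS and the kinases TBK1 and IKK-epsilon to the transcription factors IRF3 and IRF7, which switch on interferon genes. Secreted type I interferon binds the receptor chains IFNAR1 and IFNAR2, and the kinases JAK1 and TYK2 then phosphorylate STAT2. STAT2 and IRF9 act in the complex ISGF3, which binds the interferon-stimulated response element (ISRE) in the promoters of target genes. Several of the 9 genes, Irf7, Ifih1, Dhx58, Stat2 and Irf9 among them, are themselves known interferon targets in many cell types. IRF1 is a factor best known as a target of interferon gamma, whose signal acts at the gamma-activated site (GAS).

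The promoters of 5 of the members that passed in a comparison are shown, searched for the ISRE and the GAS. Interferon signals are known to act at these sites. Each window of 300 bases holds 250 bases before the start site and 50 after it, from RefSeq on GRCm38.p6, while the counts were made on GRCm39. The ISRE core was searched on both strands as GAAA, any 2 bases and GAAA, and the GAS core as TTCNNNGAA, which reads the same on both strands. Capitals mark a match, and the Irf7 window, shown for comparison, holds none.
Ifih1 promoter, chr2:62646206-62646505, minus strand: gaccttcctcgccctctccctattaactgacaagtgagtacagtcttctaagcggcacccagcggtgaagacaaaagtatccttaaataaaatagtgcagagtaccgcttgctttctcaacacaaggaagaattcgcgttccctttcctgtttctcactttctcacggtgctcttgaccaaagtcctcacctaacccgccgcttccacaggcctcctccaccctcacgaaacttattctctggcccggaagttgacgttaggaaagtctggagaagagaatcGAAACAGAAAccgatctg
Stat2 promoter, chr10:128270248-128270547, plus strand: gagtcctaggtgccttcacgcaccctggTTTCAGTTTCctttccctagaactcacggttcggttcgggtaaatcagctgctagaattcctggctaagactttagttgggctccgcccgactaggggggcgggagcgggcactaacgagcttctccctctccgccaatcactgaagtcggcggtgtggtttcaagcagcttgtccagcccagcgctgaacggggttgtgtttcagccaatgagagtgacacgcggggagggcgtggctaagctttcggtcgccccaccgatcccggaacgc
Irf1 promoter, chr11:53769764-53770063, plus strand: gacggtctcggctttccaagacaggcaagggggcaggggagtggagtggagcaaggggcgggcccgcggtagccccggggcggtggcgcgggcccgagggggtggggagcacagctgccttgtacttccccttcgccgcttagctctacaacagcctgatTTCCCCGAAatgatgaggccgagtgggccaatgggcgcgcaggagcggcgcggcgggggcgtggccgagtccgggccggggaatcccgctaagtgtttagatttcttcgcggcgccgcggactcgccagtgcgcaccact
Ifnar1 promoter, chr16:91484965-91485264, plus strand: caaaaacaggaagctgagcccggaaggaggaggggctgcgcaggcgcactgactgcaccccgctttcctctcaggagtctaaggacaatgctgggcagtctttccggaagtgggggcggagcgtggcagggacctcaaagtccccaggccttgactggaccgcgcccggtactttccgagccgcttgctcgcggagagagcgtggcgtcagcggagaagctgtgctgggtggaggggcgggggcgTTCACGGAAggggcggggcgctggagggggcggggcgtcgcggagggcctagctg
Irf7 promoter, chr7:141266375-141266674, minus strand: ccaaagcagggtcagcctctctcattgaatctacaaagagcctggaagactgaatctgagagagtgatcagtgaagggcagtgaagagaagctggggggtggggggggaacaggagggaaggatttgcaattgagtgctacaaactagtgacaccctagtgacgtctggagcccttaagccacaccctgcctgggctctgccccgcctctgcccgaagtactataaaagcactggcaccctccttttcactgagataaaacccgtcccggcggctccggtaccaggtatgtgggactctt
An ISRE core lay in Ifih1, 33 to 42 bases after the start site, and in Stat2, on the minus strand between positions -222 and -213. Of 32851 mouse promoters of this length in the same table, 3.44% held it. A GAS core lay in Irf1 between positions -90 and -82, in Ifnar1 between positions -5 and 4, and in Ifnar2 between positions -214 and -206, and 8.30% of all promoters held one. RefSeq windows were matched for 8 of the 9 genes, and no match of either core was found in those of Irf3, Irf7 and Irf9. A match describes letters in this window and is not a measured site.

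The libraries hold 3' mRNA tags with total counts from 3666413 to 7929499, so the members were read with 13 counts (Irf7) to 1046 counts (Ifnar2) in a library. Levels are CPM, the counts scaled to a common library size, with the SD over 4 libraries. Grn was at 1597 CPM or more in each WT library and at 24.2 CPM or less in each KO library. Of the microglia markers, Csf1r stood between 327 and 507 CPM, while Tmem119 (2.45 to 9.44 CPM) and Sall1 (0.520 to 3.32 CPM) were low in all 16 libraries. The neuron markers with enough counts to test, which leaves out Rbfox3, Snap25 and Stmn2, summed to 5.71 to 12.3 CPM in WT. In KO they summed to 42.4 to 79.2 CPM. The 9 astrocyte markers summed to 13.0 to 28.6 CPM in WT and 67.5 to 108 CPM in KO. Of the 12 markers of lymphocytes, granulocytes and plasmacytoid dendritic cells, only Tcf4, Bst1 and S100a8 had enough counts to test. These summed to 291 to 492 CPM, most of it Tcf4 (282 to 479 CPM), a gene that other cells also express. Bst1 (4.07 to 9.22 CPM) and S100a8 (1.05 to 5.98 CPM) were above 0 in all 16 libraries, Ly6g was at 0 in all 16, and the other 8 were at 0 in 3 to 13 libraries and at most at 1.76 CPM. Processed pseudogenes took 1.07% to 1.88% of counts in KO with DMSO, against 1.67% to 2.14% in WT with DMSO, 1.66% to 2.32% in WT with rimeporide and 1.84% to 2.35% in KO with rimeporide. KO DMSO replicate 2 stood apart from its group, with 1.88% of counts in pseudogenes and 1.07% to 1.34% in the other 3. The part of these differences in the results below was not tested beyond the values given beside them.

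Ifnar2 was the most abundant of the 9 genes, with 113 to 163 CPM over all libraries, and it lay above each of the others in every group of libraries. In WT with DMSO the order by mean was Ifnar2 at 154 ± 10.2 CPM, Irf1 at 79.9 ± 23.0, Irf9 at 74.3 ± 16.5, Ifih1 at 51.5 ± 7.99 and Stat2 at 41.0 ± 14.2 CPM. Below these came Ifnar1 at 31.7 ± 2.71 CPM, Irf7 at 26.6 ± 21.7, Irf3 at 21.7 ± 3.75 and Dhx58 at 10.6 ± 3.91 CPM (SD, n = 4). Ifnar2 lay above Irf1 and Dhx58 below Irf3 in every WT library with DMSO, and the library ranges of the other neighbours in this order overlapped. A 3' tag kit reads 1 end of each transcript, so its counts do not grow with length and were not divided by it. Irf7 had a within-group SD of 0.90 on the log2 scale, larger than that of 99.2% of the tested genes. Dhx58 (0.49), Stat2 (0.42), Irf3 (0.35), Irf9 (0.30), Irf1 (0.27) and Ifih1 (0.22) followed, while Ifnar1 (0.18) and Ifnar2 (0.12) varied least, against a median of 0.24 over all tested genes.

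**Figure D1:**
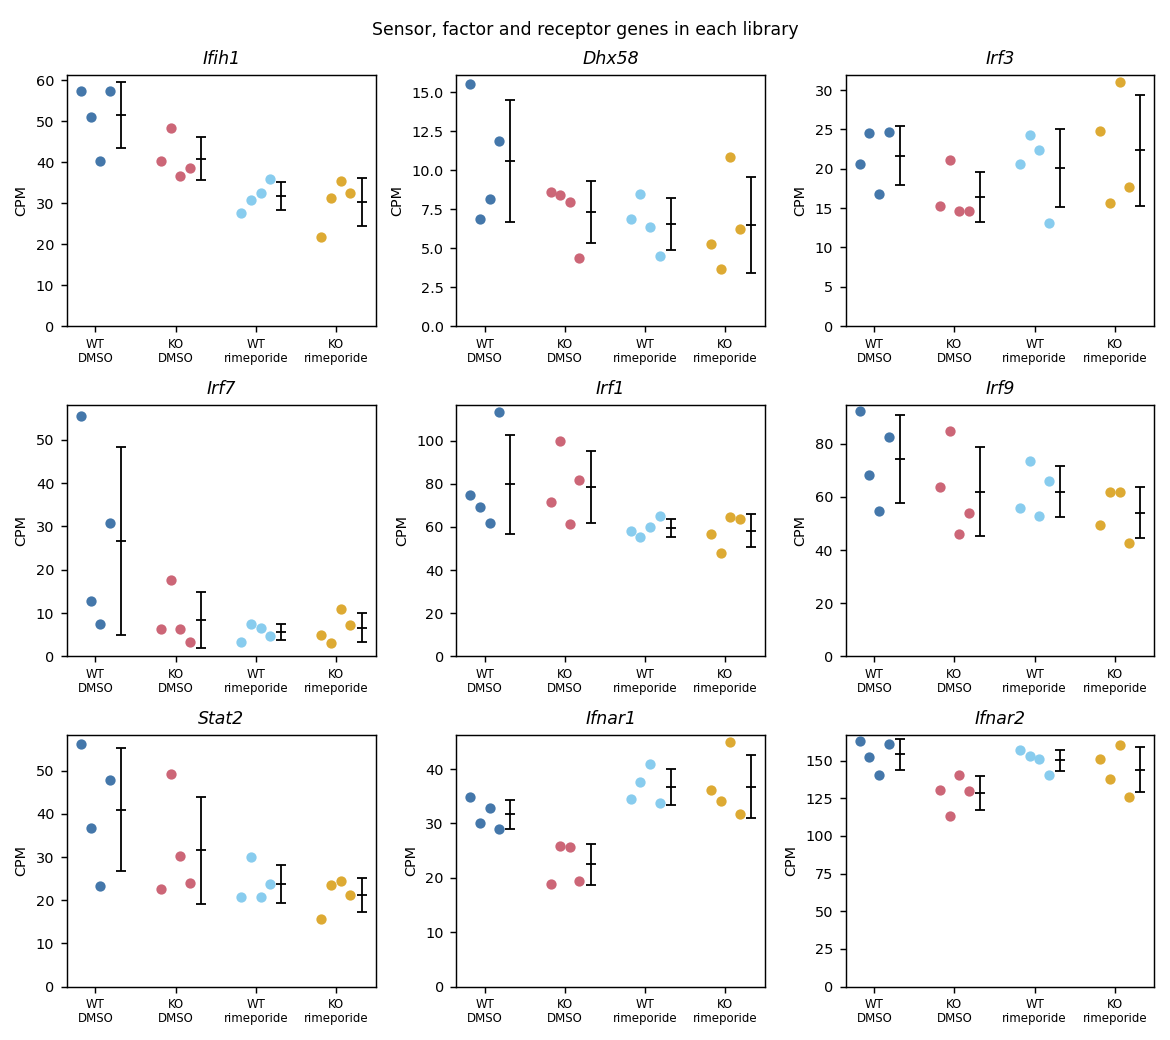
Level of each gene in CPM (linear axis from 0) in the 16 libraries, with the mean and SD of each group of 4 beside the points and replicates drawn from left to right by number. Every DMSO library lies above every rimeporide library for Ifih1, the KO libraries with DMSO lie below all others for Ifnar1, and Irf7 in WT with DMSO spreads from 7.45 to 55.4 CPM.

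Rimeporide lowered Ifih1, Irf1 and Stat2 and raised Ifnar1 when its effect was averaged over genotypes, and in Grn KO cells alone it raised Ifnar1. Loss of Grn lowered Irf7, Ifnar1 and Ifnar2 in DMSO, and no member passed between genotypes in rimeporide. Of these calls, only the averaged one of Ifih1 was kept with the pseudogene level of each library as a covariate. Leaving out single libraries ended the averaged call in 1 of 16 fits for Ifih1, 6 for Ifnar1, 9 for Irf1 and 11 for Stat2. It ended the calls for loss of Grn in 3 of 16 fits for Irf7, 2 for Ifnar1 and 7 for Ifnar2. A gene passed at an adjusted p under 0.05, from the quasi-likelihood test of edgeR with Benjamini-Hochberg adjustment across the tested genes. With rimeporide averaged over genotypes 4 of the 9 members passed, 3 lower and 1 higher, where 3.66% of all tested genes passed. Between KO and WT in DMSO 3 of 9 passed, all lower, against 18.6% of all genes, and the log2 fold changes of all 9 were below zero, with a median of -0.40 beside 0.01 over all genes. For KO against WT in rimeporide the count was 0 of 9 by edgeR, also at an unadjusted p under 0.05 and by DESeq2, against 7.46% of all genes. In KO cells rimeporide changed 1 of 9, against 14.8% of all genes, and DESeq2 called 2, Ifnar1 and Ifih1.

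In WT cells edgeR called no gene for rimeporide (0% of 12272). There, 676 genes and 5 members had an unadjusted p under 0.05, and DESeq2 called 6 genes, Ifih1 among them. The interaction, which asks whether rimeporide acted differently in the genotypes, passed for 2 genes (0.0163%) and for 0 members. It had an unadjusted p under 0.05 for 2277 genes and for 2 members, Irf7 and Ifnar1, and DESeq2 called 276 genes and 0 members. KO against WT averaged over treatments passed for 15.6% of genes and for 0 members, with 2 members at an unadjusted p under 0.05 and 1, Ifnar2, called by DESeq2. The comparisons in DMSO and the rimeporide comparisons share the DMSO libraries, so their values are set side by side and not counted as separate evidence.

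**Figure D2:**
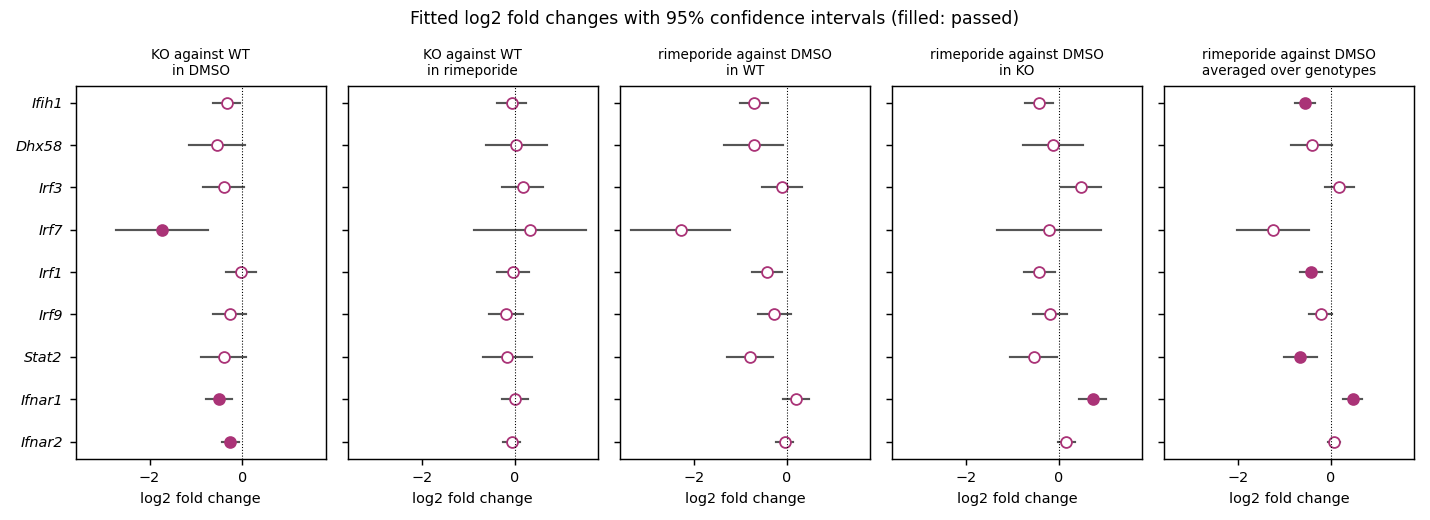
Log2 fold change (horizontal axis) of each gene in 5 comparisons, as points with 95% confidence intervals from the edgeR quasi-likelihood fit, 4 libraries per group. Filled points passed at an adjusted p under 0.05: Irf7, Ifnar1 and Ifnar2 in the first panel, Ifnar1 in the fourth, and Ifih1, Irf1, Stat2 and Ifnar1 in the fifth.

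Ifih1, the MDA5 gene, fell with rimeporide averaged over genotypes. In WT it was at 57.3, 51.0, 40.4 and 57.2 CPM with DMSO and at 27.7, 30.8, 32.5 and 35.9 CPM with rimeporide. KO libraries held 40.2, 48.2, 36.6 and 38.5 CPM with DMSO and 21.8, 31.2, 35.4 and 32.4 CPM with rimeporide. No rimeporide library reached the lowest DMSO library, 35.9 against 36.6 CPM, in either genotype. Averaged over genotypes the log2 fold change was -0.56 ± 0.10 (SE), a 1.47-fold fall (edgeR adjusted p = 0.0159). The separate log2 fold changes were -0.70 ± 0.14 in WT (edgeR adjusted p = 0.150) and -0.42 ± 0.15 in KO (edgeR adjusted p = 0.0531), and their difference was 0.28 ± 0.21 (edgeR adjusted p = 0.498). The averaged call was kept with the pseudogene level of each library as a covariate (log2 fold change -0.65 ± 0.12, edgeR adjusted p = 0.0413). It was lost without WT DMSO replicate 4 (-0.53, edgeR adjusted p = 0.0546), where 11 genes passed in all. Without WT DMSO replicate 3, Ifih1 passed for rimeporide in WT (-0.80, edgeR adjusted p = 0.0136) and in KO (-0.42, edgeR adjusted p = 0.0425), and without KO DMSO replicate 2 it passed in WT (-0.70, edgeR adjusted p = 0.0454). It also passed in WT by DESeq2 (adjusted p = 0.0190) and without a filter (edgeR adjusted p = 0.000841). In KO it passed by DESeq2 (adjusted p = 0.0430), without a filter (edgeR adjusted p = 0.0280) and with library totals alone (edgeR adjusted p = 0.0450).

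Dhx58, the LGP2 gene, was the least abundant member and passed in no comparison. WT libraries held 15.5, 6.89, 8.14 and 11.9 CPM with DMSO and 6.87, 8.50, 6.37 and 4.49 CPM with rimeporide. In KO it stood at 8.60, 8.42, 7.99 and 4.38 CPM with DMSO and at 5.27, 3.68, 10.9 and 6.23 CPM with rimeporide. All groups overlapped. The log2 fold change with rimeporide was -0.71 ± 0.31 in WT (edgeR adjusted p = 0.850), with a 95% interval from -1.34 to -0.08, and -0.13 ± 0.31 in KO (edgeR adjusted p = 0.828).

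Irf7, the factor that amplifies interferon production, fell with loss of Grn in DMSO, and its level differed widely between WT libraries. WT with DMSO had 55.4, 12.7, 7.45 and 30.8 CPM, and KO with DMSO 6.23, 17.7, 6.37 and 3.32 CPM. Replicates 1 and 4 of WT were above all KO libraries, replicates 2 and 3 were within the KO range. The log2 fold change was -1.74 ± 0.48, a fitted level 3.34-fold lower in KO (edgeR adjusted p = 0.0131). With rimeporide the level was 3.35, 7.53, 6.59 and 4.69 CPM in WT and 5.02, 3.19, 11.0 and 7.23 CPM in KO. In WT only replicate 3 with DMSO lay within the rimeporide range. The log2 fold change with rimeporide was -2.29 ± 0.51 in WT (edgeR adjusted p = 0.228), -0.22 ± 0.54 in KO (edgeR adjusted p = 0.831) and -1.25 ± 0.37 averaged over both (edgeR adjusted p = 0.0576). The interaction was 2.07 ± 0.75 (edgeR adjusted p = 0.149). The KO call in DMSO was lost on leaving out replicate 1 of WT with DMSO (-1.10, edgeR adjusted p = 0.114). Leaving out replicate 1 (-1.62) or replicate 4 (-1.47) of KO with DMSO ended it too, at edgeR adjusted p of 0.0506 and 0.0529, as did the pseudogene covariate (-1.04, edgeR adjusted p = 0.348). The fall with rimeporide in WT passed without WT DMSO replicate 3 (-2.61, edgeR adjusted p = 0.0108) or KO DMSO replicate 2 (-2.30, edgeR adjusted p = 0.0454), and the averaged fall passed without WT DMSO replicate 3 (-1.41, edgeR adjusted p = 0.0286). Without a filter on low counts, at much the same fold changes, Irf7 passed for rimeporide in WT (edgeR adjusted p = 3.89e-21) and averaged (edgeR adjusted p = 7.97e-12). It then also passed for the interaction (edgeR adjusted p = 6.32e-07) and for KO averaged over treatments (edgeR adjusted p = 0.000652). The SE in WT was 0.22 in that fit, against 0.51 with the filter, on the same libraries. These p-values thus rest on a smaller fitted spread, although WT with DMSO ran from 7.45 to 55.4 CPM. Without KO DMSO replicate 2, Irf7 also passed for the interaction (2.65, edgeR adjusted p = 0.0157), as did Ifnar1 (0.59, edgeR adjusted p = 0.0499), and 1497 genes passed there in all.

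Irf3, the factor that is present before any signal, passed in no comparison over the 16 libraries. Its range over the 16 libraries was 13.1 to 31.1 CPM, with means of 21.7 ± 3.75 CPM in WT with DMSO, 16.4 ± 3.16 in KO with DMSO, 20.1 ± 4.92 in WT with rimeporide and 22.3 ± 7.03 CPM in KO with rimeporide. These groups overlapped. The largest of its log2 fold changes between 2 groups was 0.47 ± 0.21, with rimeporide in KO (edgeR adjusted p = 0.132), and the estimate became -0.02 with the pseudogene covariate. Without KO DMSO replicate 2 it was 0.60 and passed (edgeR adjusted p = 0.0434).

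Irf1 was lower with rimeporide averaged over genotypes. With DMSO it was at 75.0, 69.2, 61.8 and 113 CPM in WT and at 71.4, 100.1, 61.3 and 81.8 CPM in KO. With rimeporide it was at 58.0, 55.4, 60.2 and 65.1 CPM in WT and at 56.7, 48.1, 64.5 and 63.8 CPM in KO. Replicate 3 of each genotype with DMSO lay within the rimeporide range, and the other 6 DMSO libraries lay above it. The log2 fold change was -0.42 ± 0.16 in WT (edgeR adjusted p = 0.773), -0.42 ± 0.16 in KO (edgeR adjusted p = 0.0793) and -0.42 ± 0.11 averaged over genotypes (edgeR adjusted p = 0.0414), a 1.34-fold fall. The difference between the genotypes' responses had a 95% interval from -0.47 to 0.47. Loss of Grn left Irf1 at a log2 fold change of -0.03 ± 0.16 in DMSO, with a 95% interval from -0.36 to 0.29. The averaged call was kept without WT DMSO replicates 1, 2 or 3, KO DMSO replicates 2 or 3, or replicate 4 of either rimeporide group. It was lost without any of the other 9 libraries, with edgeR adjusted p from 0.0605 to 0.108 and log2 fold changes from -0.45 to -0.31, and with the pseudogene covariate, at a log2 fold change of -0.44 ± 0.14 (edgeR adjusted p = 0.403). Rimeporide in KO passed for Irf1 without WT DMSO replicate 4 (-0.42, edgeR adjusted p = 0.0316) or KO DMSO replicate 3 (-0.53, edgeR adjusted p = 0.0410), and without a filter on low counts (-0.46, edgeR adjusted p = 0.00530).

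Stat2 fell with rimeporide while its partner Irf9 did not pass. Stat2 stood at 56.3, 36.7, 23.4 and 47.8 CPM in WT with DMSO and at 20.8, 30.1, 20.6 and 23.9 CPM in WT with rimeporide. KO libraries had 22.6, 49.4, 30.3 and 23.99 CPM with DMSO and 15.6, 23.6, 24.6 and 21.2 CPM with rimeporide. Of the 8 DMSO libraries 5 lay above all rimeporide libraries, and the groups overlapped in both genotypes. The log2 fold change averaged over genotypes was -0.66 ± 0.17, a 1.58-fold fall (edgeR adjusted p = 0.0374), from -0.79 ± 0.24 in WT (edgeR adjusted p = 0.626) and -0.54 ± 0.25 in KO (edgeR adjusted p = 0.146). The call was kept without WT DMSO replicates 2 or 3, KO DMSO replicate 2 or replicate 4 of either rimeporide group, and lost without any of the other 11 libraries (log2 fold changes from -0.73 to -0.57, edgeR adjusted p from 0.0511 to 0.0959). Without a filter, where its fitted spread was smaller, Stat2 passed in WT (-0.78 ± 0.15, edgeR adjusted p = 0.000355) and in KO (-0.58 ± 0.16, edgeR adjusted p = 0.00776). It was also lost with the pseudogene covariate, at a log2 fold change of -0.91 (edgeR adjusted p = 0.0691).

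Irf9 had 92.2, 68.1, 54.6 and 82.5 CPM in WT with DMSO and 55.7, 73.6, 52.7 and 66.1 CPM in WT with rimeporide. KO levels were 63.5, 84.6, 45.9 and 54.0 CPM with DMSO and 49.4, 61.9, 62.0 and 42.6 CPM with rimeporide. The groups overlapped throughout, and the averaged log2 fold change with rimeporide was -0.22 ± 0.12 (edgeR adjusted p = 0.302). KO DMSO replicate 2 was the highest of its group in Ifih1, Irf1, Irf3, Irf7, Irf9, Stat2 and Ifnar1. Leaving it out brought Ifih1 (-0.43), Irf9 (-0.46) and Stat2 (-0.69) past the threshold for KO against WT in DMSO, with edgeR adjusted p of 0.0255, 0.0366 and 0.0171. In the same comparison in DMSO Ifih1 also passed without WT DMSO replicate 3 (-0.44, edgeR adjusted p = 0.0402). Averaged over treatments, KO against WT passed without KO DMSO replicate 2 for Irf7 (-1.005), Irf9 (-0.33), Stat2 (-0.43) and Ifnar1 (-0.30), with edgeR adjusted p from 0.0309 to 0.0435. In summed interferon targets KO DMSO replicate 2 was the highest of its group (2435 CPM). WT DMSO replicate 3 was the lowest of its group (1038 CPM), so leaving out either widens the gap between genotypes. WT DMSO replicates 1 and 4 (2719 and 2454 CPM) stayed in. Without WT DMSO replicate 1 instead, 1 member passed in DMSO. Genes called in DMSO ran from 1430 to 3345 with single libraries left out, against 2287 with all. Averaged over treatments, genes called for KO against WT ran from 1660 to 2712, against 1919 with all. What this choice adds to the calls was not tested.

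Ifnar1, the low-affinity chain of the type I interferon receptor, had its lowest levels in Grn KO cells with DMSO. KO libraries with DMSO had 18.8, 25.9, 25.6 and 19.5 CPM, and WT libraries with DMSO 34.9, 30.05, 32.9 and 28.9 CPM. With rimeporide the level was 36.1, 34.1, 45.0 and 31.6 CPM in KO and 34.6, 37.6, 40.8 and 33.7 CPM in WT. The KO DMSO libraries overlapped with none of the other 12, and the rimeporide groups overlapped each other. Loss of Grn in DMSO gave a log2 fold change of -0.51 ± 0.14, a 1.42-fold lower level (edgeR adjusted p = 0.0124), and in rimeporide one of 0.01 ± 0.14, with a 95% interval from -0.27 to 0.29. Rimeporide raised Ifnar1 1.65-fold in KO, by 0.73 ± 0.14 on the log2 scale (edgeR adjusted p = 0.00377). In WT the log2 fold change was 0.21 ± 0.14 (edgeR adjusted p = 0.978), and averaged over genotypes it was 0.47 ± 0.10 (edgeR adjusted p = 0.0240). The difference between the genotypes' responses, 0.52 ± 0.19, did not pass (edgeR adjusted p = 0.157).

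The rise in KO was kept whichever library was left out, with log2 fold changes from 0.60 to 0.80. The fall in KO with DMSO was lost without KO DMSO replicate 1 (-0.43, edgeR adjusted p = 0.0619) or replicate 4 (-0.44, edgeR adjusted p = 0.0517). The averaged rise was lost without WT DMSO replicate 4, KO DMSO replicates 1 or 4, WT rimeporide replicate 3 or KO rimeporide replicates 2 or 3, with edgeR adjusted p from 0.0504 to 0.0730 and log2 fold changes from 0.40 to 0.48. Ifnar1 moved with the share of processed pseudogenes in these libraries. Its most alike genes by log2 CPM centred on group means, among 9695 genes with at least 5 CPM over the 16 libraries, were Tpt1-ps3 (r = 0.90), Rps10 (r = 0.89) and Rpl13-ps3 (r = 0.89), that is 2 pseudogenes and a ribosomal protein gene. With the pseudogene level as a covariate the rise in KO was 0.30 ± 0.17 (edgeR adjusted p = 1.00), where 1 gene passed in all. The fall in DMSO became -0.19 ± 0.15 (edgeR adjusted p = 0.574), where 808 genes passed, and the averaged rise became 0.25 ± 0.10 (edgeR adjusted p = 0.665), where 17 passed.

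**Figure D3:**
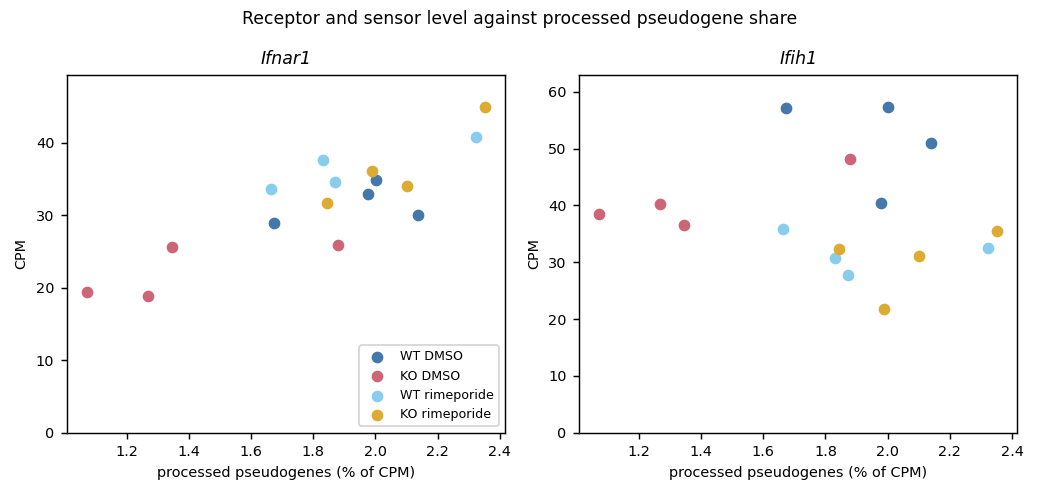
Level of Ifnar1 and Ifih1 (CPM, linear axis from 0) against the share of counts in processed pseudogenes (percent, axis not from 0), 1 point per library, coloured by group. The 3 KO libraries with DMSO at 1.07% to 1.34% hold 18.8 to 25.6 CPM of Ifnar1, and for Ifih1 the DMSO libraries lie above the rimeporide libraries where their shares overlap, between 1.66% and 2.14%.

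Ifnar2, the chain with the higher affinity for interferon, varied least of the 9 genes within groups and fell with loss of Grn in DMSO. WT with DMSO had 163, 152, 140.5 and 161 CPM and KO with DMSO 130.3, 113, 141 and 129.6 CPM. With rimeporide it was at 157, 153, 151 and 140.4 CPM in WT and at 151, 138, 160.3 and 126 CPM in KO. Only the highest KO library reached the WT range in DMSO. The log2 fold change of KO in DMSO was -0.26 ± 0.09, a 1.198-fold lower level (edgeR adjusted p = 0.0415). It was lost without WT DMSO replicates 1, 2 or 4, KO DMSO replicates 1, 2 or 4 or KO rimeporide replicate 2 (log2 fold changes from -0.28 to -0.22, edgeR adjusted p from 0.0517 to 0.112). Scaling by library totals alone (-0.25), no filter (-0.23), a fit on both groups alone (-0.27) and the pseudogene covariate (-0.29) gave fold changes of like size that did not pass, with edgeR adjusted p from 0.0582 to 0.270. With rimeporide Ifnar2 had log2 fold changes of -0.04 ± 0.09 in WT and 0.16 ± 0.09 in KO (edgeR adjusted p = 0.230). Both receptor genes lie on chromosome 16 in RefSeq, with Il10rb between them and Ifngr2 next to Ifnar1, and Olig1 and Olig2, marker genes of oligodendrocytes, on the other side of Ifnar2. In bulk RNA, fewer cells of a type and less RNA per cell cannot be told apart.

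Interferon genes themselves were at the edge of detection. Over all 16 libraries Ifnb1 had 4 counts, Ifna4, Ifna2, Ifne and Ifnl3 1 each, Ifnk and Ifnl2 2 each, and Ifna5 and Ifng 0, and none of these 9 genes had enough counts to test. Among 31 tested interferon target genes such as Isg15 and the Ifit genes, 16 fell and 0 rose with rimeporide averaged over genotypes, where 3.66% of all genes passed, and all 31 had log2 fold changes below zero, with a median of -0.67. Ifit3b fell by 2.04 ± 0.30 on the log2 scale (edgeR adjusted p = 0.00652) and Ifit3 by 1.82 ± 0.29 (edgeR adjusted p = 0.00719). Ifit3 and Ifit3b are near-identical copies, so the split of counts between them is uncertain. The list counts were not recomputed under alternatives, and in this comparison 449 genes passed in all, 11 without WT DMSO replicate 4 and 17 with the pseudogene covariate. In KO cells 7 of the 31 fell with rimeporide, where 14.8% of all genes passed, Slfn5 (-0.85 ± 0.17, edgeR adjusted p = 0.00396) with the smallest p. In WT cells 0 passed, as for all genes, while all 31 were below zero with a median of -0.96. Loss of Grn in DMSO lowered 1 of the 31, Ifi35 (-0.82 ± 0.21, edgeR adjusted p = 0.00934), where 18.6% of all genes passed. In that comparison 27 of the 31 were below zero, with a median of -0.37. For KO against WT in rimeporide 0 of the 31 passed, where 7.46% of all genes passed, and 8 were below zero, with a median of 0.11.

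Of 19 tested sensor adaptors and kinases, 3 fell with rimeporide averaged over genotypes and 0 rose, where 3.66% of all genes passed. In KO alone and with loss of Grn in DMSO 2 of the 19 fell, where 14.8% and 18.6% of all genes passed. With rimeporide averaged over genotypes, Trim25, a ubiquitin ligase that activates RIG-I, had a log2 fold change of -0.34 ± 0.06 (edgeR adjusted p = 0.0115). In the same averaged comparison Eif2ak2, the RNA-activated kinase PKR, had -0.61 ± 0.13 (edgeR adjusted p = 0.0268). Myd88, the adaptor of most Toll-like receptors, had -0.27 ± 0.08 there (edgeR adjusted p = 0.0483). In KO cells alone Trim25 (-0.42 ± 0.09) and Eif2ak2 (-0.60 ± 0.19) fell, with edgeR adjusted p of 0.00433 and 0.0341. Ddx58, the RIG-I gene, had an averaged log2 fold change of -0.53 ± 0.17, and it did not pass (edgeR adjusted p = 0.0756). Loss of Grn lowered Myd88 in DMSO, from 76.6 to 56.1 CPM, by 0.45 ± 0.11 on the log2 scale (edgeR adjusted p = 0.00448), and in rimeporide, from 63.7 to 46.3 CPM (edgeR adjusted p = 0.00801), with no overlap between genotypes in either. Tbk1, the kinase of IRF3, was lower in KO with DMSO (-0.37 ± 0.11, edgeR adjusted p = 0.0202). In rimeporide 2 of the 19 were lower in KO, Myd88 and Trim25 (-0.30 ± 0.09, edgeR adjusted p = 0.0297 for Trim25), where 7.46% of all genes passed. Averaged over treatments, 3 of the 19, Myd88, Trim25 and Tbk1, were lower in KO. Tlr7, an endosomal RNA receptor, was the 1 that was higher (0.28 ± 0.09, edgeR adjusted p = 0.0374). In that comparison 15.6% of all genes passed.

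Of the 6 other tested IRF family and IRF2-binding genes, 1, Irf5, was lower in KO with rimeporide (-0.43 ± 0.11, edgeR adjusted p = 0.0152), where 7.46% of all genes passed. With rimeporide in KO 2 of the 6 fell, where 14.8% of all genes passed. These were Irf2bpl (-0.61 ± 0.14) and Irf2bp1 (-0.52 ± 0.16), with edgeR adjusted p of 0.00813 and 0.0371. None of the 6 passed for KO in DMSO or for rimeporide averaged over genotypes, where 18.6% and 3.66% of all genes passed. Irf8, a factor that microglia need, stood at 91.4 CPM in WT and 107 CPM in KO with rimeporide (log2 fold change 0.24 ± 0.12, edgeR adjusted p = 0.299). Averaged over treatments 1 of the 6, Irf5, was lower in KO (-0.32 ± 0.08, edgeR adjusted p = 0.00489), where 15.6% of all genes passed. Among 17 receptor kinases, STATs and brakes, 3 fell and 0 rose with loss of Grn in DMSO, a share near the 18.6% of all genes. Jak2, a kinase of the interferon gamma receptor, had -0.54 ± 0.14 (edgeR adjusted p = 0.00949), the phosphatase gene Ptpn6 -0.37 ± 0.10 (edgeR adjusted p = 0.0135), and Ifngr1, a chain of that receptor, -0.23 ± 0.07 (edgeR adjusted p = 0.0268). Ifngr1 was also lower in KO with rimeporide (-0.29 ± 0.07, edgeR adjusted p = 0.0114), the only 1 of the 17 to pass there, beside 7.46% of all genes. For rimeporide, 0 of the 17 passed averaged over genotypes, where 3.66% of all genes passed. In KO 2 of the 17 fell, a share near the 14.8% of all genes. These were Pias1 (-0.41 ± 0.10, edgeR adjusted p = 0.0109) and Stat6 (-0.39 ± 0.13, edgeR adjusted p = 0.0445).

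Within groups, 5 of the 9 members rose and fell from library to library with the interferon targets. The test below was run on the members alone, so the share of all tested genes that would pass is not known. The target score of a library was the mean log2 CPM of the 31 target genes, none of them a member. Score and members were centred on their group means, and p came from permutation within groups (100000 resamples), two-sided and adjusted over the 9 relations. Stat2 had r = 0.90 (permutation p = 0.00065, adjusted p = 0.00255) and rho = 0.86 (permutation adjusted p = 0.00441). Irf7 had r = 0.88 (permutation p = 0.00085, adjusted p = 0.00255) and rho = 0.80 (permutation adjusted p = 0.0102). For Irf9 r was 0.84 (permutation p = 0.00082, adjusted p = 0.00255) and rho 0.83 (permutation adjusted p = 0.00441), and for Ifih1 r was 0.81 (permutation p = 0.00118, adjusted p = 0.00265) and rho 0.79 (permutation adjusted p = 0.00522). These 4 passed whichever library was left out. Without the 2 libraries farthest from the median score, WT DMSO replicate 3 and KO DMSO replicate 2, r was 0.82 for Stat2, 0.80 for Irf7, 0.76 for Irf9 and 0.72 for Ifih1.

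Dhx58 had r = 0.64 (permutation p = 0.0232, adjusted p = 0.0417) and rho = 0.70 (permutation adjusted p = 0.0196), and missed the threshold without WT DMSO replicates 1 or 4, KO DMSO replicate 4, WT rimeporide replicate 2 or KO rimeporide replicates 3 or 4, with r from 0.56 to 0.64 and permutation adjusted p from 0.0578 to 0.132. Irf1 (r = 0.59, permutation adjusted p = 0.130), Irf3 (r = 0.48, permutation adjusted p = 0.0710), Ifnar1 (r = 0.27, permutation adjusted p = 0.405) and Ifnar2 (r = 0.12, permutation adjusted p = 0.695) did not pass. The libraries high in targets were WT DMSO replicates 1 and 4 and KO DMSO replicate 2, whose targets summed to 2719, 2454 and 2435 CPM, against 895 to 2131 CPM in the other 13. Taken over 8 means of libraries with the same genotype and number, Stat2 still passed, while Irf7 (r = 0.90, permutation adjusted p = 0.0637), Irf9 (r = 0.88, permutation adjusted p = 0.0968), Ifih1 (r = 0.72, permutation adjusted p = 0.152) and Dhx58 (r = 0.30) did not.

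**Figure D4:**
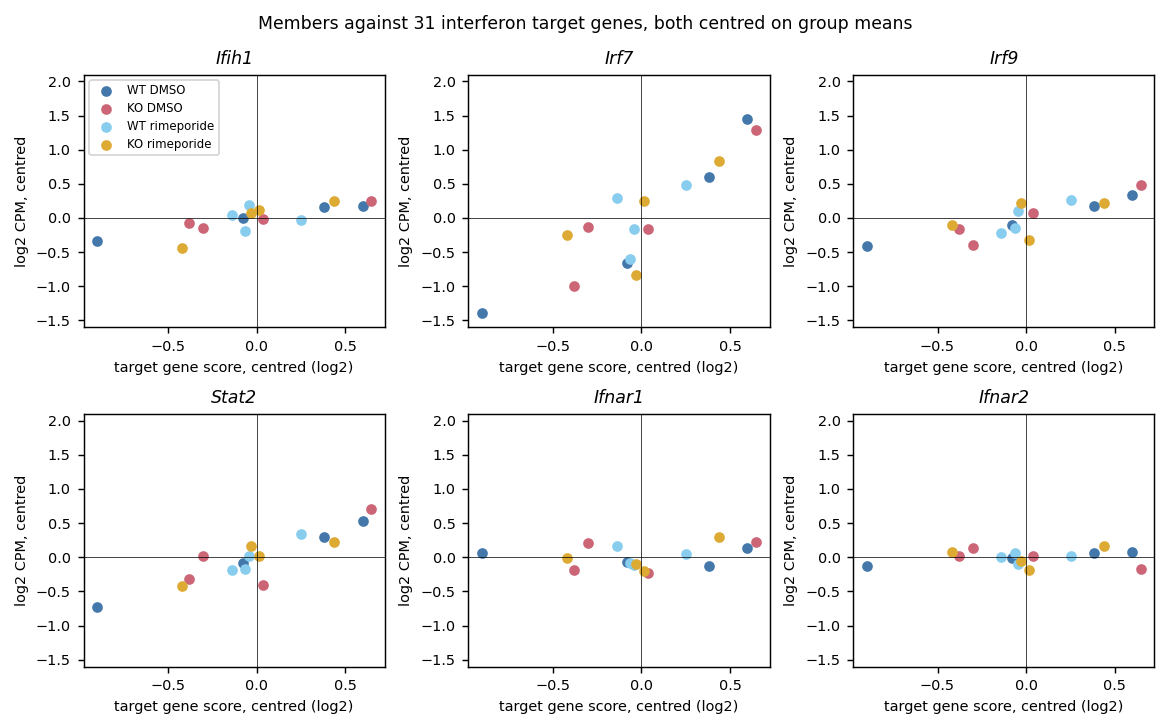
Log2 CPM (vertical axis) of 6 of the genes against the score of 31 interferon target genes (horizontal axis, log2), both centred on group means, 1 point per library and coloured by group. Irf7, Stat2, Irf9 and Ifih1 rise with the score (r = 0.88, 0.90, 0.84 and 0.81), Irf7 over the widest span, while Ifnar1 (r = 0.27) and Ifnar2 (r = 0.12) do not follow it.

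The genes most alike to each member, by the same centred correlation over 16 libraries, are given as a description. For Irf7 they were Slfn9 (r = 0.94), Ifi47 (0.91) and Phf11d (0.90), for Stat2 Ddx58 (0.93), Zbp1 (0.92) and Gvin1 (0.91), and for Irf9 Rnf213 (0.93), Sp100 (0.91) and Mx1 (0.89). Ifih1 was nearest to Trim30d (0.91), Dtx3l (0.91) and Parp14 (0.90), and Dhx58 to Zfp263 (0.88), Nlrc5 (0.86) and Gsdmd (0.84). Irf1 was nearest to Zfp65 (0.85), Pom121 (0.81) and Lrch1 (0.81), Irf3 to Csk (0.85), Ift80 (0.84) and Il15ra (0.81), and Ifnar2 to Tmem184c (0.88), Cdk9 (0.86) and Ybx1 (0.84). Among members, r was 0.81 between Irf7 and Stat2, 0.78 between Irf7 and Dhx58 and between Irf9 and Stat2, 0.76 between Ifih1 and Stat2, and 0.29 between the receptor chains. All of these points share the libraries and their depth.

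Exons of 6 members overlap those of a neighbour in the GENCODE M21 annotation, and the sources used here do not say whether strand was used in counting. For Irf7 45 bases overlap Phrf1 on the opposite strand (133 to 281 counts a library), for Irf3 88 bases overlap Bcl2l12 on the opposite strand (0 to 30 counts), for Irf9 123 bases overlap Rnf31 on the same strand (16 to 56 counts) and for Ifnar2 315 bases overlap Gm21970 on the same strand (35 to 122 counts). Counts of these 4 members are uncertain to that extent. Dhx58os and Gm17334, which overlap Dhx58 and Irf1 on the opposite strand, had at most 2 counts in a library.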

How the data were processed

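Polyadenylated RNA was measured as 3' tags in 16 libraries, and the members and gene lists were chosen with earlier results of these data known. The authors deposited expected counts per gene, made with Salmon on GRCm39 per the submitters' processing notes. The sources used here do not name the annotation or say whether strand was used or PCR duplicates were removed before counting. Of the values 13.7% were not whole, and rounding changed 0.0207% of the total. Tests used the quasi-likelihood functions of edgeR 4.0.16 (R 4.3.3) with TMM scaling and 1 mean per group, on genes kept by filterByExpr (minimum count 10, minimum total 15), and were tested on simulated data. A standard error is the size of the log2 fold change divided by the root of F, and p-values were adjusted over 12272 genes in each of 7 comparisons. The p-values rest on the spread between libraries as each fit estimates it. Log2 CPM used a prior count of 2. Named genes are the members, their 3 most alike genes, and in each pathway list up to 4 with the smallest p for KO in DMSO, up to 2 elsewhere, and all that passed where 4 or fewer did. The alternatives were other scalings and filters, a replicate block, the groups compared alone, DESeq2 1.42.0 and each library left out. The pseudogene covariate, the mean log2 CPM of 933 processed pseudogenes, was chosen after seeing the data. Pseudogenes and overlaps were taken from GENCODE M21 and promoters from RefSeq.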

Additional observations from a re-analysis of the deposited data

Results flagged for a closer look

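Among 36 groups of 4 libraries (9 genes in 4 groups), 2 held a library farther from the rest than Dixon's 95% critical value of 0.829 allows, where chance alone gives about 1 in 20. Dhx58 was at 4.38 CPM in KO DMSO replicate 4, below the 7.99 to 8.60 CPM of the other 3 libraries of that group. Irf3 was at 21.2 CPM in KO DMSO replicate 2, above the 14.6 to 15.3 CPM of the others. Dhx58 and Irf3 passed in no comparison over the 16 libraries.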

How the results depend on the processing

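Over 1692 recomputed values of single members, the relations with the target score included, 1543 kept their direction and side of the threshold, 59 lost a call, 41 gained one and 49 changed sign. Members called for rimeporide in KO numbered 2 under library totals alone, 4 without a filter, 3 with a replicate block over all libraries, 2 with the replicate block within genotype, 2 by DESeq2 and 0 with the pseudogene covariate (1 in the report). Genes called in that comparison ran from 1 to 2411 over the settings other than leaving 1 library out, against 1813 in the report. For rimeporide in WT, genes called numbered 95 without a filter (3 members), 6 and 8 with the 2 replicate blocks, 6 by DESeq2 (1 member) and 2 with the covariate, instead of 0. Interaction genes numbered 630 without a filter (1 member), 694 and 690 with the replicate blocks, 276 by DESeq2 and 0 with the covariate, instead of 2. For KO against WT averaged over treatments, 1 member passed in each of 3 settings, Irf7 without a filter, Ifnar1 with the replicate block over all libraries and Ifnar2 by DESeq2. Genes called for averaged rimeporide numbered 970 without a filter, 1321 and 1275 with the replicate blocks, 801 by DESeq2 and 17 with the covariate (1 member), instead of 449. KO against WT in DMSO had 808 genes and 0 members with the covariate, and rimeporide in KO 1 gene. The cause of these moves was not tested. Same-numbered libraries deviated together with correlations from -0.03 to 0.23, and no pair of groups had all 4 over 0.1, so the numbers were not taken to pair cultures. Replicate 4 had 0.11 to 0.23 in every pair of groups, and KO with DMSO and KO with rimeporide had 3 of 4 over 0.1. With the replicate block, rimeporide in KO also passed for Ifih1 (edgeR adjusted p = 0.0402 over all libraries, 0.0374 within genotype) and, over all libraries, for Irf1 (-0.41, edgeR adjusted p = 0.0452).

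Without 1 library, KO against WT had 1430 to 3345 genes and 0 to 5 members in DMSO, while rimeporide gave 701 to 1086 genes and 0 members. Rimeporide called 0 to 40 genes and 0 to 2 members in WT, 643 to 3002 genes and 1 to 2 members in KO, and 11 to 1746 genes and 0 to 5 members averaged. The interaction had 0 to 1497 genes and 0 to 2 members, and KO against WT averaged 1660 to 2712 genes and 0 to 4 members. Signs that changed were of log2 values that had not passed. In rimeporide, KO against WT became -0.0088, -0.0040 and -0.086 for Ifnar1 (no filter, at least 1 CPM in 4 libraries, covariate) and -0.066 for Dhx58 (covariate). The interaction of Irf1 became -0.046 without a filter, -0.0068 and -0.013 with the replicate blocks, -0.0039 by DESeq2 and -0.023 with the covariate, which also gave -0.17 for Irf9 and -0.23 for Stat2. For Irf3 the covariate gave -0.020 for rimeporide in KO, -0.073 averaged, and 0.0081 for KO averaged over treatments. Leaving out 1 library, the ranges with both signs were -0.18 to 0.19 for Irf1 between genotypes in DMSO, and with rimeporide -0.17 to 0.046 (Ifih1), -0.38 to 0.23 (Dhx58), -0.10 to 0.049 (Irf1), -0.060 to 0.31 (Irf3), -0.094 to 0.55 (Irf7) and -0.12 to 0.061 (Ifnar1). They were -0.22 to 0.054 for Irf3 with rimeporide in WT, -0.64 to 0.36 for Irf7 and -0.54 to 0.061 for Dhx58 in KO, -0.22 to 0.13 for Irf1 and -0.045 to 0.25 for Irf9 in the interaction, -0.11 to 0.079 for Irf1 averaged, and r from -0.19 to 0.48 for Ifnar2 with the target score. The lowest levels, 13 counts of Irf7 and 15 of Dhx58 in a library, limit what can be seen of these genes.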
